A study of Mus musculus with 22 samples.

Results

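Rods were compared between WT and AdipoR1-/- (KO) mice at postnatal day 25 (P25), the middle of the 3 ages at which single retinal cells were sequenced. The rods were chosen by measured values, since a cell counted as one when it held RNA of at least 4 of 7 rod genes (Pde6a, Pde6b, Nr2e3, Nrl, Cnga1, Rp1 and Guca1b) and of fewer than 2 of 10 genes of other retinal classes (Arr3, Gnat2, Pde6c, Trpm1, Pcp2, Slc6a9, Gad1, Rlbp1, Glul and Slc17a6). This rule took 2781 of the 10000 cells at P25 and of the 26764 cells in all. It took 875 WT cells, or 20.04% of the WT library (95% exact binomial interval 18.9% to 21.3%), and 1906 KO cells, or 33.8% of the KO library (32.6% to 35.1%). The intervals in this section cover counting error only, since each genotype had 1 library at P25.

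Rods are the photoreceptors of dim light. They catch photons in a stack of membrane discs, the outer segment, signal through transducin and a cGMP phosphodiesterase to a cation channel, and release glutamate at a ribbon synapse. The discs are renewed every day, which asks for steady synthesis of protein and of membrane lipid rich in docosahexaenoic acid (DHA). ADIPOR1 is a membrane receptor for adiponectin with ceramidase activity, which splits ceramide, and it is needed for the retention of DHA in the retina.

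The retinas came from C57BL/6J WT mice and from KO mice whose disrupted Adipor1 allele, made in 129P2-derived cells, had been backcrossed to C57BL/6J. For each single-cell library, retinae from mice of one genotype were pooled at P19, P25 or P30, so the P25 comparison has no replicate and no test. The P19 and P25 libraries were sequenced together and the P30 libraries in another batch. Whole retina of 4 WT and 4 KO mice at P30 was also sequenced in bulk.

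The WT and KO pools at P25 differed in sex. Summed over the gated cells, Xist, the RNA that coats the inactive X chromosome of females, had 6024 UMIs (unique molecules) in WT and 4 in KO. Ddx3y, a gene of the Y chromosome, had 0 in WT and 312 in KO. In the 4 libraries of P19 and P30, Xist had between 0 and 1 UMIs. Sex and genotype therefore cannot be told apart at P25. The P19 and P30 values, from pairs of like sex, are given beside many of the P25 values below, but not beside all.

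The gated cells carried the marks of rods, with an exception among the deepest. Sag, the rod arrestin that ends the light response and was not in the rule, was detected in 98.4% of gated WT cells and 99.8% of gated KO cells, against 57.8% and 62.4% of the other cells. The median gated cell held 1139 UMIs in WT and 1233.5 in KO. Cells above 3000 UMIs made up 14.9% of gated cells but 49.7% of gated UMIs in WT (130 cells), and 6.56% of cells but 22.5% of UMIs in KO (125 cells). Above 4000 UMIs, 24 phototransduction genes held a median of 0.681% of a WT cell's UMIs and 1.87% of a KO cell's, where cells that were not gated had 0.309% and 0.314%. In the cells of up to 3000 UMIs that share was 6.37% in WT and 6.32% in KO. All values below are therefore given for rods of up to 3000 UMIs (745 WT and 1781 KO cells, with 900151 and 2375559 UMIs) and, where named so, for all gated cells (1789813 and 3065453 UMIs). At the edge of the rule, among cells with fewer than 2 genes of other classes, the 105 WT and 216 KO cells with 4 rod genes had median phototransduction shares of 4.39% and 4.86%, and the 104 WT and 113 KO cells with 3 had 0.459% and 4.08%. The P25 libraries had 5 cell barcodes in common, none of them in rods of both.

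**Figure D1:**
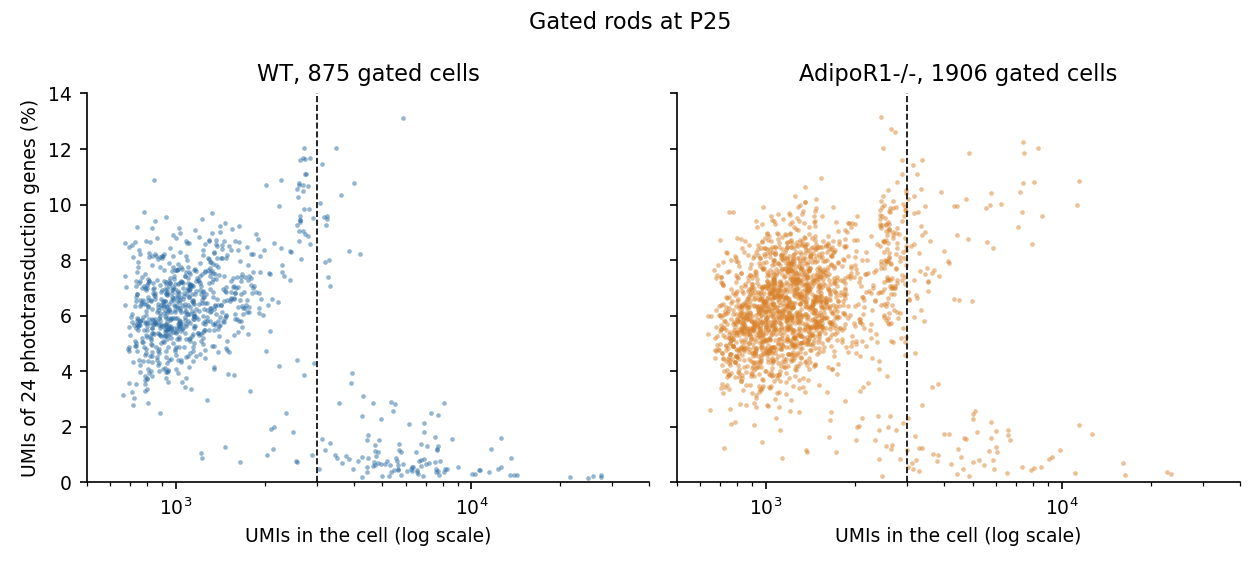
Each point is 1 gated cell at P25, with its UMIs on a logarithmic x axis and the percent of them in 24 phototransduction genes on the y axis, for WT and KO. The dashed line stands at 3000 UMIs. To its left the medians are 6.37% in WT and 6.32% in KO, and most of the cells to the right above 4000 UMIs lie low on the y axis.

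The promoters of 3 genes whose groups stood out in KO rods are shown, since members of a group that differ together can share short sequence elements. Each window is the 250 bases before the RefSeq start in GRCm38.p6, written 5′ to 3′ on the gene's strand, with the motif matches in capitals. Both strands were searched, and a match describes letters in the window and not a bound site.

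The window of Hmgcs1, which makes HMG-CoA for cholesterol synthesis, lies at chr13:119690101-119690350 on the plus strand, and its capitals mark CCAAT, in its reverse complement, and the sterol element TCACCCCAC.
Hmgcs1: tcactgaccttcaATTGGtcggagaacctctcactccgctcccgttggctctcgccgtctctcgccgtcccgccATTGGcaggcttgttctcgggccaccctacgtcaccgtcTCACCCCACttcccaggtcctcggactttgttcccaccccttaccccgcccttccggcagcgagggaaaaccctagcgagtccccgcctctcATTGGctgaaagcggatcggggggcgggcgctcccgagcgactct
The window of Asns, the enzyme that makes asparagine, lies at chr6:7693210-7693459 on the minus strand, and its capitals mark TGATGNAA, the element read by ATF4 in amino acid shortage.
Asns: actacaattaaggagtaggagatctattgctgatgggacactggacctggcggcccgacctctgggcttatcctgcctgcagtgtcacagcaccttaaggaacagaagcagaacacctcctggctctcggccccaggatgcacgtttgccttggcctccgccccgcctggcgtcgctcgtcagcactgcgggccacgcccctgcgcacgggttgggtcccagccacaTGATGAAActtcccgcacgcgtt
The window of Atf3, a transcription factor induced by stress, lies at chr1:191183334-191183583 on the minus strand, and its capitals mark the same element in reverse complement.
Atf3: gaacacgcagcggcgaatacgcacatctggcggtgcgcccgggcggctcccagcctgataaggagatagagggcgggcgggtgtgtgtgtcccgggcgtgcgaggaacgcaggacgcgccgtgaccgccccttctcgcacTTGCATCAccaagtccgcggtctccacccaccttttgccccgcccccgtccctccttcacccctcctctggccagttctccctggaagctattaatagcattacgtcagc
Some genes have several windows, so shares of windows are compared. The 20 sterol and fatty acid synthesis genes with a window had 26, of which 18 (69.2%) held CCAAT, in 17 genes. It was in 33.9% of all 32851 windows. TCACCCCAC was in 1 of these 26 windows (3.85%) and in 0.50% of all windows. TGATGNAA was in 4 of the 24 windows (16.7%) of 24 genes of the unfolded protein response (Asns, Atf3, Chac1 and Herpud1) and in 3.45% of all windows. TAATCC, a core read by the photoreceptor factor CRX, was in 9 of 16 phototransduction genes and in 6.25% of all windows. TTCCNGGAA, read by STAT3, was in 1 of the 22 windows (4.55%) of 22 stress and injury genes (Steap4) and in 0.91% of all windows.

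Adipor1 (chromosome 1, 134415378 to 134433351, plus strand, GRCm38) was 469.9 CPM (UMIs of a gene per 1000000 UMIs) in WT rods and 116.6 CPM in KO rods. The log2 ratio of KO to WT was -2.01 (95% counting interval -2.23 to -1.79), and -1.55 over all gated cells. RNA of the gene was thus lower but not absent in KO rods. It was 536.9 and 76.9 CPM at P19 and 728.7 and 110.3 CPM at P30. Over the 3 ages, limma with age in the model, which leaves 2 residual degrees of freedom, gave a log2 difference of -2.50 (adjusted p = 2.12e-07, 5.82e-03 over all gated cells). In bulk retina the WT libraries had 605.1, 599.9, 589.0 and 608.2 CPM and the KO libraries 142.2, 138.2, 136.2 and 136.6 CPM, groups that do not overlap, with an edgeR log2 difference of -2.11 ± 0.04 (SE, n = 4 and 4, adjusted p = 4.61e-13).

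The relatives of Adipor1 were low in rods of both genotypes. Adipor2, the second adiponectin receptor, was 56.7 CPM in WT and 53.0 CPM in KO (log2 ratio -0.10, -0.58 to 0.40). Asah1, the lysosomal acid ceramidase, was 28.9 and 41.7 CPM (0.51, -0.11 to 1.21). Both intervals hold 0. The alkaline ceramidases Acer3 and Acer2 were at 31.1 and 19.4 CPM and at 11.1 and 13.5 CPM, and the neutral ceramidase Asah2 had 1 UMI in each genotype. Acer1 is not among the genes of the matrix. Of the 26 genes of ceramide and sphingolipid metabolism with at least 50 UMIs, 11 were higher in KO, 2 of them at least 1.5-fold, and 7 were at least 1.5-fold lower. Over all genes measured in these rods, 54.4% were higher, 12.0% at least 1.5-fold, and 7.29% were at least 1.5-fold lower. The median log2 ratio of the 26 was -0.10. The lower ones beside Adipor1 included Cers4, a ceramide synthase, with 539.9 CPM in WT and 358.6 CPM in KO (-0.59, -0.75 to -0.43), and Col4a3bp, the ceramide transfer protein, with 126.7 and 74.1 CPM (-0.78, -1.12 to -0.42). Over the 3 ages, 2 of the 30 genes tested fell, Adipor1 and Col4a3bp (adjusted p = 8.66e-03 for the latter, limma), and none rose, where 2.57% of all genes fell and 4.92% rose. Over all gated cells Adipor1 fell and Col4a3bp did not pass (adjusted p = 0.211).

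Over all gated cells, 959 of 9551 genes with at least 50 UMIs were at least 1.5-fold higher in KO (10.0%) and 1408 were at least 1.5-fold lower (14.7%). In rods of up to 3000 UMIs, a limit set after the data were seen, 962 of 7996 were higher by that much (12.0%) and 583 lower (7.29%). Higher at any size were 51.5% of genes over all gated cells and 54.4% in rods of up to 3000 UMIs. These shares are the background for the gene groups below. For counts over the 3 ages the background is 4.92% rising and 2.57% falling in rods of up to 3000 UMIs. Over all gated cells it is 1.10% and 0.159%. The higher sets of both had 496 genes in common, 51.7% of the one and 51.6% of the other. The lower sets had 194 in common, 13.8% of the set from all gated cells and 33.3% of the set from rods of up to 3000 UMIs. The lists of lower genes thus depended far more on the deep cells than the lists of higher genes.

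The largest ratios over all gated cells lay mostly in genes of other cell types. C1qb, C1qc, Ctss and Tyrobp, genes of microglia and macrophages, had 0 UMIs in gated WT cells and 414, 249, 340 and 251 UMIs in gated KO cells. Dcn, a proteoglycan of fibroblasts, had 0 and 401. C1qb was thus at least 80.6-fold higher, against a floor of 3 UMIs in the WT library, and 409 of its 414 UMIs lay in cells above 3000 UMIs. C1qa had 1 and 519 UMIs. At the other end, Rims1, Pcdh17, Cartpt, Rph3a, Calb2, 6330403K07Rik, Calb1, Stmn2 and Slit2, many of them genes of inner retinal neurons, had log2 ratios from -4.13 to -2.44. Cartpt, an amacrine cell peptide, had 855 UMIs in WT and 165 in KO, of which 837 and 56 lay in the cells above 3000 UMIs, and its log2 ratio changed from -3.15 to 1.17 without them.

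Sums over the microglia and amacrine marker lists also depended on the deep cells. The 10 microglia markers had 19.0 CPM in WT and 735.0 CPM in KO over all gated cells, and 16.7 and 19.4 CPM in rods of up to 3000 UMIs, where 7 of the 10 (C1qb, C1qc, Cx3cr1, P2ry12, Ctss, Csf1r and Tyrobp) were at 0 in WT and none reached 50 UMIs. The 7 amacrine markers had 889.5 and 276.3 CPM before and 63.3 and 95.1 CPM after. Some markers were in the rule, which limits their RNA in the chosen cells. These were Slc6a9 and Gad1 of the amacrine list, Arr3, Gnat2 and Pde6c of the cone list, and Trpm1 and Pcp2 of the bipolar list. The cone, bipolar and RPE (pigment epithelium) lists were lower in KO both ways. The 9 cone markers had 158.1 CPM in WT and 110.9 CPM in KO over all gated cells, and 195.5 and 107.3 CPM in rods of up to 3000 UMIs. The 9 bipolar markers had 634.1 and 406.5 CPM, and 415.5 and 362.4 CPM. The RPE markers had 64.3 and 24.8 CPM, and 116.6 and 18.5 CPM.

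**Figure D2:**
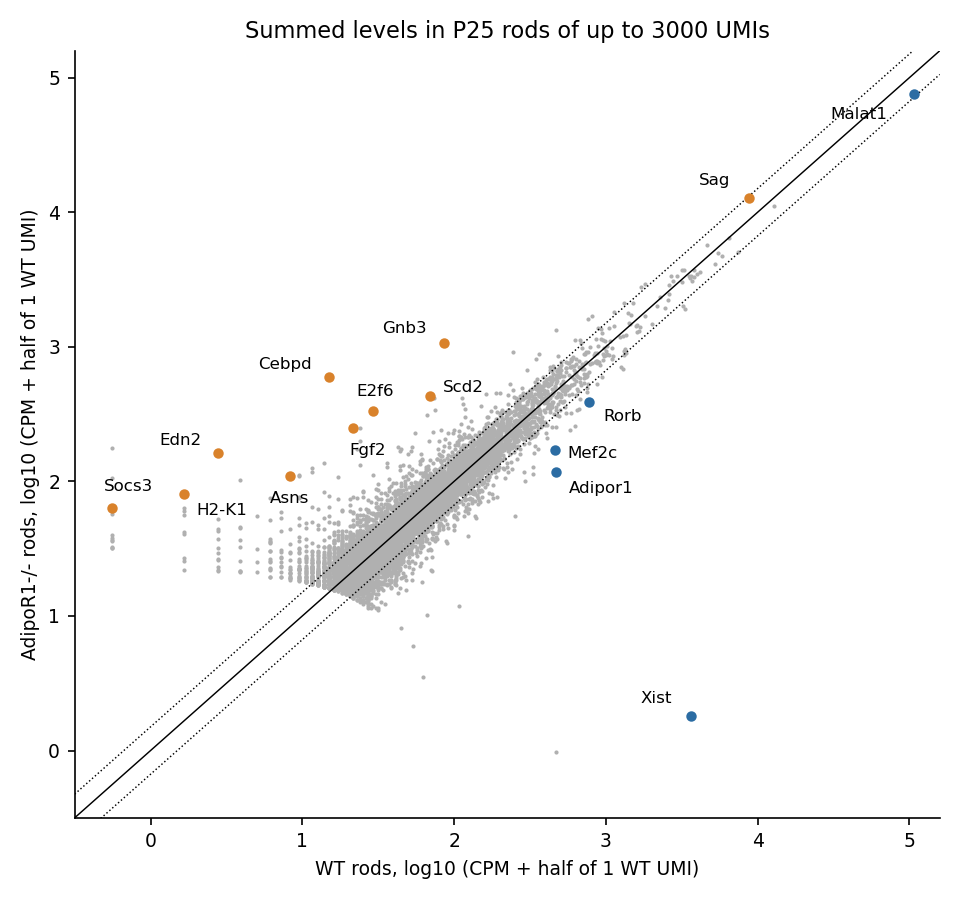
Each point is 1 gene in P25 rods of up to 3000 UMIs, with its WT level on the x axis and its KO level on the y axis, both as log10 of CPM with a small offset. The solid line marks equal levels and the dotted lines 1.5-fold. Adipor1 lies below the lines, at 469.9 and 116.6 CPM, and Edn2, Cebpd, Fgf2 and Gnb3 lie far above them.

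Genes with at least 200 UMIs in rods of up to 3000 UMIs were ranked, with Xist, its antisense RNA Tsix and 4 Y-linked genes set aside. The 10 with the highest ratios were Edn2, Cebpd, Pcolce, Asns, Gnb3, Atf3, H2-D1, Fgf2, E2f6 and Antxr2. Their log2 ratios ran from 5.86 down to 3.43. All 10 rose over the 3 ages (limma, adjusted p from 1.49e-08 for Fgf2 to 8.61e-06 for Edn2). The P25 libraries that ranked these genes are part of that fit, so its p-values are not independent of the ranking. The log2 ratios of the 10 ran from 2.15 to 4.16 at P19 and from 1.995 to 5.97 at P30. The 10 lowest were 3010001F23Rik (-2.21), Adipor1, Rabgap1l, Gm20139, Gm47283, Mef2c, 2810030D12Rik, D1Ertd622e, Gm4258 and Gm14508 (-1.34), mostly transcripts without a described role. Of the 10 lowest, 3010001F23Rik lies on the X chromosome and Gm47283 is annotated on the Y chromosome, in a pair of pools that differs in sex. Gm47283 had 297 UMIs in the WT rods at P25, where Ddx3y had 0, so its RNA is not of the Y chromosome alone. For 3010001F23Rik, WT and KO rods had 251.1 and 54.3 CPM at P25, 155.5 and 67.9 CPM at P19 and 249.5 and 58.8 CPM at P30, the same order at each age. Gm47283 was at 118.9 and 121.0 CPM at P19 and 180.7 and 81.9 CPM at P30, with log2 ratios of 0.02 and -1.14. Its lower level in KO at P25 (-1.54), where sex and genotype cannot be told apart, was thus seen at P30 and not at P19. Of the 10 lowest, D1Ertd622e, Gm4258 and Rabgap1l lie on chromosome 1 with Adipor1. They start at 97606318, 137898595 and 160219174, and Adipor1 at 134415378. Of the 10 highest, Atf3 lies on that chromosome, from 191170296. The disrupted allele was made in cells of another strain. The part of sequence kept from that strain near Adipor1 in these differences was not tested.

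Genes of photoreceptor stress and injury made up the group with the highest median among those described here. The list was chosen with earlier results of these data known, so its rank and counts describe it and do not test it. Of its 24 genes, 13 had at least 50 UMIs. All 13 were higher in KO, 11 of them at least 1.5-fold, with a median log2 ratio of 2.23 (2.14 over all gated cells), against a median of 0.05 for all genes. The median stayed 2.23 when members at 0 in WT were set to their lower bound. Over the 3 ages, 12 of the 15 members tested rose and none fell (limma), and 9 of 16 rose over all gated cells.

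Edn2 (chromosome 4, 120161206 to 120167360, plus strand), an endothelin that damaged photoreceptors release, had 2 UMIs in WT rods and 382 in KO rods, or 2.22 and 160.8 CPM (log2 ratio 5.86, 4.31 to 9.23). It was 5.10 and 36.8 CPM at P19 and 6.67 and 305.4 CPM at P30, so KO rods were above WT rods at each age. Cebpd (chromosome 16, 15887286 to 15891031, plus strand), a transcription factor of the acute-phase response, was 14.4 CPM in WT and 594.0 CPM in KO (5.31, 4.58 to 6.27). Fgf2, a growth factor that protects photoreceptors, was 21.1 and 249.6 CPM (3.53, 2.91 to 4.31).

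Members of JAK-STAT signalling and other stress genes of the list, several of them named after their values were seen, are given next. Stat3, the transcription factor, was 35.6 CPM in WT and 137.2 CPM in KO (1.93, 1.42 to 2.52). Il6st, the receptor subunit gp130 shared by cytokines of the IL-6 family, was 17.8 and 60.6 CPM (1.73, 1.02 to 2.62). Socs3, the feedback inhibitor of the pathway, had 0 UMIs in WT rods and 150 in KO rods, which makes it at least 18.9-fold higher (35.6-fold over all gated cells). Bcl3, an NF-kB cofactor, had 0 and 85 UMIs, at least 10.7-fold higher. The ligand Lif had 0 and 1 UMIs and the receptor Osmr 0 and 2, too few to compare. Gadd45b, a stress sensor of the cell cycle and DNA repair, was 23.3 and 250.1 CPM (3.39, 2.80 to 4.13). Mt1, a metallothionein that binds zinc, had an interval that holds 0 at P25 (0.47, -0.04 to 1.04) and log2 ratios of 1.496 at P19 and 1.16 at P30.

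The immediate early genes, which cells induce within minutes of a stimulus, were also mostly higher. Of 15 measured, 14 were higher in KO and 11 at least 1.5-fold, with a median log2 ratio of 0.96 (0.56 over all gated cells). Fos was 466.6 CPM in WT and 1328 CPM in KO (1.51, 1.36 to 1.66), Egr1 188.9 and 453.4 CPM (1.26, 1.03 to 1.505) and Junb 65.5 and 310.7 CPM (2.23, 1.86 to 2.65). The ratio of Fos was 2.08 at P19 and 0.33 at P30. Of the 16 tested over the ages, 10 rose and none fell (5 rose over all gated cells). These genes also answer to tissue dissociation, and that part of their difference was not tested.

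Class I antigen presentation was near 0 in WT rods. H2-K1, a heavy chain of the class I complex, had 1 UMI in WT rods and 190 in KO rods (log2 ratio 5.59, 3.67 to 11.48). H2-D1, the other classical heavy chain, had 8 and 261 UMIs, or 8.89 and 109.9 CPM (3.54, 2.63 to 4.86). B2m, the light chain that both need, had 0 and 28 UMIs. H2-D1 and H2-K1 were the 2 of 4 measured members past 1.5-fold, and both rose over the ages (adjusted p = 2.02e-06 and 3.20e-06). Microglia, which express these genes strongly, had marker sums of 16.7 and 19.4 CPM in the same rods.

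Genes of the unfolded protein response and the ATF4 pathway, which slow translation and raise amino acid supply when the endoplasmic reticulum or amino acid pools are strained, formed a broad group. Of 26 measured, 25 were higher in KO rods and 16 at least 1.5-fold, with a median log2 ratio of 0.70 (0.61 over all gated cells, with 13 at least 1.5-fold). The list summed to 1870 CPM in WT and 3333 CPM in KO. Its median was 0.77 at P19 and 0.41 at P30, and 14 of the 26 rose over the ages (5 over all gated cells).

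The members with the largest ratios included known targets of ATF4, some of them named after their values were seen. Atf4 itself was 483.2 CPM in WT and 855.0 CPM in KO (0.82, 0.67 to 0.98). Its target Asns (chromosome 6, 7675169 to 7693254, minus strand), whose promoter is printed above, was 7.78 and 109.4 CPM (3.72, 2.75 to 5.14). Atf3 was 8.89 and 111.1 CPM (3.56, 2.64 to 4.87). Chac1, which breaks down glutathione, had 1 and 96 UMIs (4.61, 2.67 to 10.50), and Trib3, a pseudokinase that restrains the pathway, was 13.3 and 52.6 CPM (1.93, 1.12 to 2.97). Ddit3, the factor CHOP tied to stress-induced death, was 98.9 and 240.4 CPM (1.27, 0.96 to 1.62). Among chaperones, Hspa5, the main chaperone of the endoplasmic reticulum, was 123.3 and 254.7 CPM (1.04, 0.75 to 1.35) and Calr, a lectin chaperone, 162.2 and 267.7 CPM (0.72, 0.46 to 0.99). Atf6, a sensor of the response, was the 1 member lower in KO (-0.56, -0.99 to -0.12).

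Sterol and fatty acid synthesis was the group with the largest count past 1.5-fold. All 27 measured genes were higher in KO rods and 21 were at least 1.5-fold higher, with a median log2 ratio of 1.23. The list summed to 1051 CPM in WT and 2419 CPM in KO (log2 ratio 1.202, 1.10 to 1.30). Over all gated cells the result was smaller, with 24 of 28 higher, 9 at least 1.5-fold and a median of 0.47. The median was 1.00 at P19 and 0.64 at P30. Over the ages, 16 of 29 rose and none fell (3 over all gated cells).

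The regulators were among them. Srebf2, the transcription factor of cholesterol synthesis, was 24.4 CPM in WT and 75.8 CPM in KO (1.60, 0.99 to 2.34), and Insig1, its sterol-sensing brake, was 12.2 and 61.9 CPM (2.28, 1.46 to 3.37). Of the cholesterol pathway, Hmgcs1 was 49.99 and 128.8 CPM (1.35, 0.91 to 1.85), Pmvk, phosphomevalonate kinase, 67.8 and 197.8 CPM (1.54, 1.16 to 1.95), and Cyp51, which demethylates lanosterol, 31.1 and 95.1 CPM (1.59, 1.04 to 2.23). Scd2 (chromosome 19, 44293674 to 44306864, plus strand), a desaturase that makes monounsaturated fatty acids, was 68.9 and 429.8 CPM (2.63, 2.27 to 3.04), and its relative Scd1 had 0 and 86 UMIs, at least 10.9-fold higher. With the deep cells included the ratio of Hmgcs1 was -0.08 (-0.32 to 0.16), and its ratio at P30 was 0.15.

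**Figure D3:**
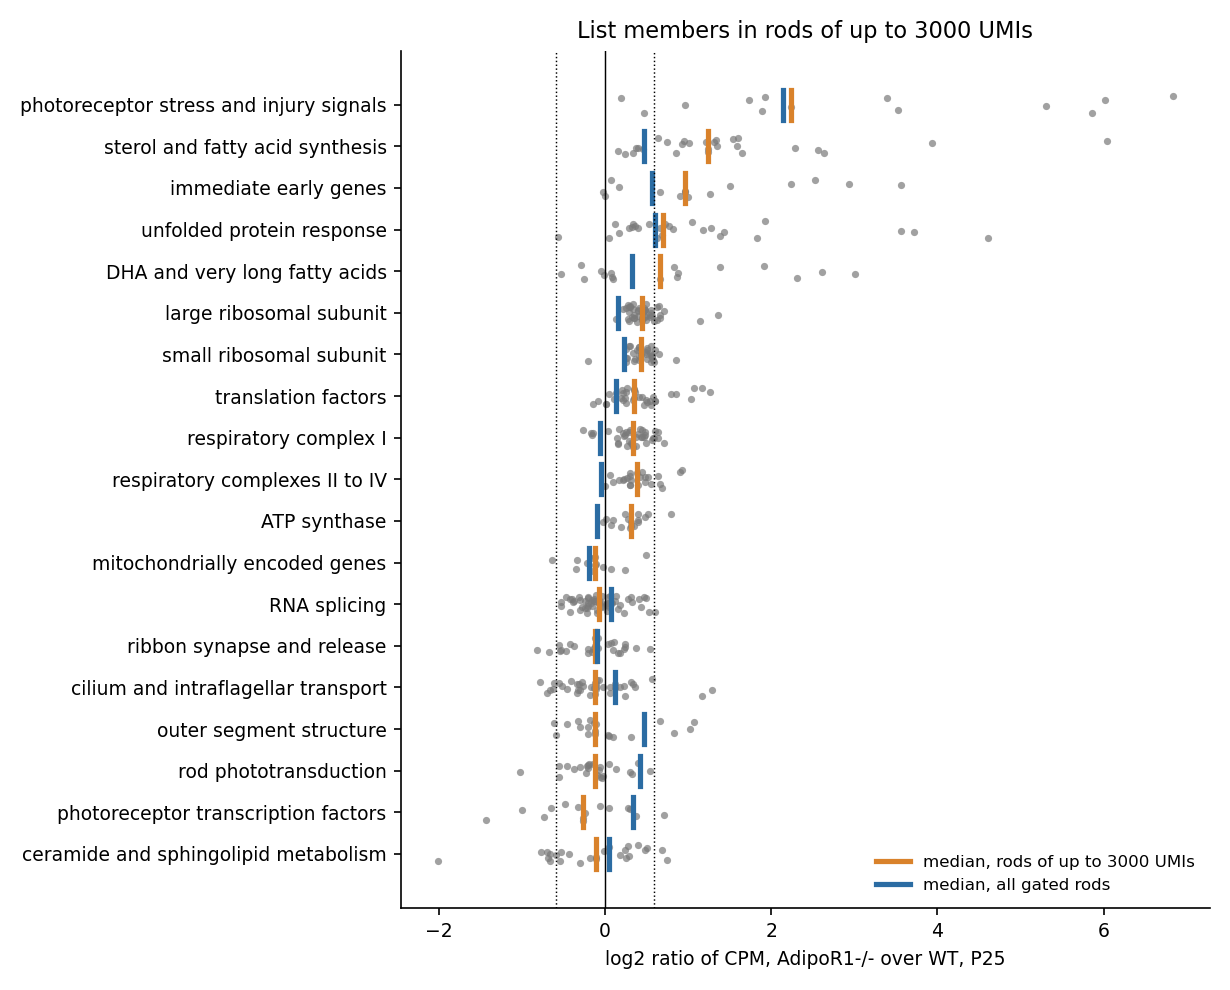
Each grey point is 1 gene of a list, at its log2 ratio of KO to WT in P25 rods of up to 3000 UMIs on the x axis, with the lists on the y axis. The orange mark is the list's median in those rods and the blue mark its median over all gated cells. Stress and injury signals have the highest orange median at 2.23, sterol and fatty acid synthesis lies at 1.23 and 0.47, and phototransduction at -0.12 and 0.43.

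Genes that make and handle DHA and very long fatty acids were mixed. Of 17 measured, 12 were higher in KO, 9 at least 1.5-fold and none lower by as much, with a median of 0.67 (0.33 over all gated cells). The median was 0.27 at P19 and 0.19 at P30. Fads2, the desaturase of the first step of DHA synthesis, was 8.89 CPM in WT and 75.8 CPM in KO (3.01, 2.08 to 4.33), and Fads1 was 8.89 and 35.4 CPM (1.91, 0.95 to 3.25). Elovl6, which lengthens saturated chains, was 8.89 and 46.7 CPM (2.31, 1.37 to 3.64). The genes with the most RNA in rods did not share this. Elovl4, which makes the very long chains of outer segments, was 698.8 and 744.2 CPM (0.09, -0.04 to 0.22), and Agpat3, which puts DHA into phospholipid, was 953.2 and 801.9 CPM (-0.25, -0.37 to -0.13).

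The machinery of phototransduction stayed within 1.5-fold for 23 of 24 genes. Its summed RNA was 66171 CPM in WT rods and 65455 CPM in KO rods, a log2 ratio of -0.02. Of the 24 genes, 6 were higher and the median was -0.12. Over all gated cells 22 were higher, with a median of 0.43 and 5 past 1.5-fold, where the WT cells above 4000 UMIs held the low shares given above. In this group, 4 genes were in the rule that chose the cells. Without them 6 of 20 were higher, with a median of -0.07. At P19 the 24 genes had a median of -0.03 and a summed log2 ratio of 0.02, and at P30, where 3 were higher, -0.35 and -0.42.

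Gnat1, the rod transducin alpha subunit, was 3170 and 3032 CPM (-0.06, -0.13 to -0.00). Sag stood apart, with 8787 and 12797 CPM (0.54, 0.51 to 0.58), and ratios of 0.01 at P19 and 0.74 at P30. Pdc, phosducin, which binds transducin beta-gamma, was 7409 and 5036 CPM (-0.56, -0.60 to -0.51). The 1 member past 1.5-fold was Gucy2f, a guanylate cyclase that restores cGMP, with 145.5 and 71.6 CPM (-1.03, -1.36 to -0.68). It and Rgs9bp, the anchor of the transducin GTPase complex, fell over the ages (adjusted p = 2.75e-03 and 0.0161), and none of the 24 rose. Neither passed over all gated cells (adjusted p = 0.228 and 0.415, limma).

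Gnb3 (chromosome 6, 124834240 to 124840275, minus strand), the transducin beta subunit of cones and ON bipolar cells, was 85.5 CPM in WT rods and 1058 CPM in KO rods (3.62, 3.30 to 3.98). It had 83.2 and 403.1 CPM at P19 and 86.6 and 1483 CPM at P30, so the WT level was alike at the 3 ages and the KO level was above it at each. In cones at P25 it was 3714 CPM in KO, with a log2 ratio of 0.14, and in bipolar cells 1649 CPM, with 0.25. The 9 cone markers in the same rods were lower in KO, and the 3 of them with at least 50 UMIs had a median of -0.72. Arr3, Gnat2 and Pde6c of this list were in the rule that chose the cells, so the list's level in these rods is partly set by the rule.

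Outer segment structure was mixed. Of 20 genes, 8 were higher, 4 at least 1.5-fold, and 2 were lower by as much, with a median of -0.13 (0.46 over all gated cells). Prph2 and Rom1, the tetraspanins of the disc rim, were at 3989 and 3451 CPM (-0.21, -0.27 to -0.15) and 3573 and 3263 CPM (-0.13, -0.19 to -0.07). The higher members were genes of the matrix around the outer segment and of disc formation, with Rbp3, which carries retinoids between cells, at 764.3 and 1603 CPM (1.07, 0.95 to 1.19), Impg2, a matrix proteoglycan, at 278.8 and 496.7 CPM (0.83, 0.64 to 1.04), Mfge8, a bridge for phagocytosis, at 106.7 and 218.1 CPM (1.03, 0.72 to 1.36), and Cdhr1, a cadherin of forming discs (0.66, 0.43 to 0.90). The lower ones were Rdh12, which clears retinal, at 1313 and 873.1 CPM (-0.59, -0.69 to -0.48), and Atp8a2, a lipid flippase (-0.61, -0.82 to -0.40). Rbp3, Impg2 and Mfge8 rose over the ages and Rdh12 fell, of which Impg2 alone passed over all gated cells (adjusted p = 0.0171, limma).

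Photoreceptor transcription factors were mixed. Nrl and Nr2e3 were in the rule that chose the cells and are left out of the counts. Of the other 13 measured, 5 were higher and 1 of them past 1.5-fold, 4 were lower by as much, and the median was -0.24 (0.35 over all gated cells, where 8 were higher). Crx, the factor that both photoreceptor types need, was 772.1 and 652.1 CPM (-0.24, -0.37 to -0.11). Mef2c, a MADS-box transcription factor, was 458.8 CPM in WT and 170.5 CPM in KO (-1.43, -1.63 to -1.23), with ratios of -1.37 at P19 and -0.75 at P30 (limma adjusted p = 1.29e-04). Rorb, a nuclear receptor of early rod fate, was 769.9 and 386.4 CPM (-0.99, -1.14 to -0.85), but its ratio was -0.09 at P19 and -1.51 at P30. Neurod1, which keeps photoreceptors alive, was the 1 higher past 1.5-fold, at 1696 and 2780 CPM (0.71, 0.63 to 0.79).

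Genes of the cilium and of the ribbon synapse were mostly lower by small amounts, where 54.4% of all genes were higher. Of 40 cilium and intraflagellar transport genes, 13 were higher, 2 at least 1.5-fold, and 5 were lower by as much, with a median of -0.12. Arl6, a small GTPase of the BBSome coat, was 359.9 and 881.5 CPM (1.29, 1.12 to 1.47) and Rpgrip1, which anchors RPGR in the connecting cilium, 3216 and 2025 CPM (-0.67, -0.73 to -0.60). Of 28 synapse genes, 11 were higher, none at least 1.5-fold, and 2 were lower by as much. One was Dmd, dystrophin of the rod terminal, at 1253 and 711.8 CPM (-0.82, -0.93 to -0.71), and the other Cacna1f, the calcium channel of the terminal (-0.68, -1.01 to -0.34). The synapse median was -0.12, with -0.01 at P19 and -0.00 at P30. The cilium median was -0.36 at P19 and 0.04 at P30, where 22 of the 40 genes were higher. Over the ages 5 of 29 synapse genes fell and none rose, and 5 of 42 cilium genes fell and 2 rose, where 2.57% of all genes fell and 4.92% rose. No gene of either list fell over all gated cells, and 27 of the 40 cilium genes were higher at P25.

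Ribosomal protein genes were higher in KO by a small amount in nearly every member. Of 80 measured, 79 were higher and 13 at least 1.5-fold, with a median log2 ratio of 0.45 (0.19 over all gated cells). Their sum was 30264 CPM in WT rods and 41090 CPM in KO rods. The median was 0.66 at P19 and 0.14 at P30, and 23 of the 80 rose over the ages, though none did over all gated cells. Eif1, an initiation factor, was 807.6 and 1693 CPM (1.07, 0.95 to 1.18), and 34 of the 36 translation factors measured were higher. Of these 36, 29 were higher at P19 and 22 at P30.

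Nuclear genes of the respiratory chain and ATP synthase behaved alike. Of 80, 75 were higher and 11 at least 1.5-fold, with a median of 0.32. That median was -0.06 over all gated cells, where 27 were higher. It was 0.54 at P19 and 0.13 at P30, and 0.33 and 0.10 at these ages over all gated cells. Of the 80, 10 rose over the ages, though none did over all gated cells. Cox5b, a subunit of complex IV, was 186.6 and 356.6 CPM (0.93, 0.69 to 1.18). The 13 mitochondrially encoded genes went the other way at P25, with 3 higher and a median of -0.13.

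Measures of RNA quality also differed between the WT and KO rods at P25. In rods of up to 3000 UMIs, the nuclear RNA Malat1 held a median of 11.0% of a WT cell's UMIs and 7.86% of a KO cell's, ribosomal protein genes 2.67% and 3.51%, and mitochondrially encoded genes 1.08% and 1.34%. Malat1 was 107080 and 75677 CPM, a log2 ratio of -0.50, with -0.85 at P19 and 0.14 at P30. Summed over these rods, the mitochondrially encoded genes were lower in KO, at 25989 and 23366 CPM (log2 ratio -0.15), though their median share per cell was higher. The part of these measures in the ribosomal and respiratory results was not tested. The 61 splicing genes, as another large set, had 25 higher and a median of -0.07.

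Other groups lay between these. In proteasome genes 27 of 31 were higher with a median of 0.33, in heat shock and chaperone genes 25 of 28 with 0.32, in antioxidant genes 18 of 20 with 0.50 and in glycolysis 15 of 16 with 0.17. The antioxidant median was -0.15 over all gated cells. In genes of apoptosis and necroptosis 11 of 16 were higher, with a median of 0.21 (0.03 over all gated cells). Over the ages 4 rose, though none did over all gated cells. Genes of AMPK, PPAR and fatty acid oxidation, pathways that adiponectin receptors are known to act through, had 9 of 20 higher and a median of -0.01.

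The P25 differences were set beside those of the other ages, in rods of the same rule and UMI limit. Of the 962 genes at least 1.5-fold higher at P25, 393 (40.9%) were so at P19, where 11.9% of all genes measured were, and 360 (37.4%) at P30, where 10.4% were. At all 3 ages 234 were (24.3%). Of the 583 lower genes, 198 (34.0%) were so at P19, where 9.23% of all genes measured were, 200 (34.3%) at P30, where 8.90% were, and 86 (14.8%) at all 3. Each age has its own WT and KO library.

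The test over the 3 ages, which holds the P25 libraries, called 125 genes higher (1.10% of 11313) and 18 lower (0.159%) over all gated cells at an adjusted p under 0.05. In rods of up to 3000 UMIs it called 486 higher (4.92% of 9886) and 254 lower (2.57%). Without the P25 libraries, the pair of unlike sex, it called 262 higher and 117 lower of 8793.

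**Figure D4:**
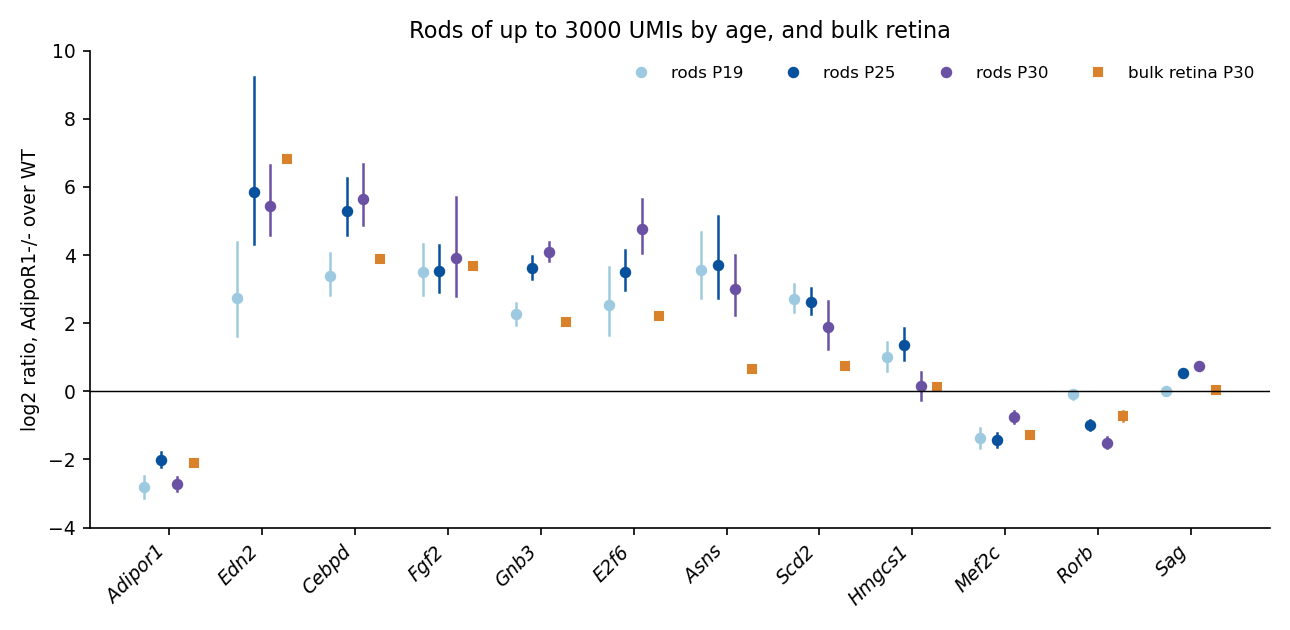
The y axis is the log2 ratio of KO to WT and the x axis lists genes. Dots are rods of up to 3000 UMIs at P19, P25 and P30 with 95% counting intervals, and orange squares are bulk retina at P30 with the SE of 4 WT and 4 KO libraries. Adipor1 lies between -2.80 and -2.01 at each age, and Edn2 at 2.75, 5.86 and 5.44.

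Bulk retina at P30, from libraries the gate did not use, was tested with edgeR. It called 1357 genes at least 1.5-fold higher (7.002% of 19381) and 589 lower (3.04%) at an adjusted p under 0.05. In bulk tissue fewer cells of a type and less RNA per cell cannot be told apart. Of the genes at least 1.5-fold higher in P25 rods, 158 of the 949 that were tested in bulk (16.6%) were called higher there, and of the lower ones 115 of 558 (20.6%) were called lower.

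The injury genes, a list chosen with earlier results of these data known, were mostly higher in bulk too. Edn2 had 3.78, 2.78, 2.68 and 3.04 CPM in the WT libraries and 350.1, 341.0, 334.7 and 376.5 CPM in the KO libraries, with no overlap (log2 difference 6.83 ± 0.08 SE, adjusted p = 8.76e-15). Of the 23 stress and injury genes tested, 20 rose and none fell, where 7.002% of all genes rose and 3.04% fell. Several of these, such as Gfap and Serpina3n, genes of reactive glia, had at most 11 UMIs in P25 rods. Gnb3 had 319.3 to 380.8 CPM in WT and 1386 to 1528 CPM in KO (2.05 ± 0.07 SE, adjusted p = 7.96e-11). Mef2c had 92.9 to 106.1 CPM in WT and 35.1 to 45.05 CPM in KO (-1.30 ± 0.07 SE, adjusted p = 1.69e-08).

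Of the phototransduction genes, 16 of 24 fell past 1.5-fold in bulk, with a median of -0.76, beside medians of -0.12 in the rods at P25 and -0.35 at P30. Sag had 4702 to 5115 CPM in WT and 4867 to 5409 CPM in KO, ranges that overlap (0.02 ± 0.07 SE, adjusted p = 0.820). Of the sterol and fatty acid genes, 5 of 29 rose past 1.5-fold, with a median of 0.22 beside 1.23 in the rods at P25, among them Scd2, with 383.6 to 438.9 CPM in WT and 658.1 to 693.9 CPM in KO (0.73 ± 0.05 SE, adjusted p = 1.86e-07). No ribosomal protein gene of 80 passed in either direction, with a median of 0.00.

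The same differences were read in 4 other cell classes of the P25 libraries, cones (294 WT and 285 KO cells), bipolar cells (1058 and 1041), amacrine cells (919 and 834) and Mueller glia (413 and 543). All share the sex difference and the library with the rods. The summed sterol and fatty acid genes had log2 ratios of 0.41 in cones, 0.03 in bipolar cells, -0.18 in amacrine cells and -0.09 in Mueller glia, against 1.202 in rods. The rod value was higher by 0.79 (counting interval 0.65 to 0.93) than in cones and by 1.17 to 1.38 than in the other classes. The unfolded protein response was higher in rods than in these classes by 0.58 to 0.68, and the respiratory genes by 0.28 to 0.34. The rods here have up to 3000 UMIs, while the other classes keep cells of every depth. Over all gated cells the rod ratios were 0.56 for the sterol and fatty acid genes, 0.73 for the unfolded protein response and -0.04 for the respiratory genes, so the gaps in the first and last depended on the limit. The summed stress and injury genes were at 0.73 in rods and 0.89 in Mueller glia, a difference of -0.16 (-0.22 to -0.10), and at 0.38 to 0.54 in the other classes. Over all gated cells the rod ratio of these genes was 1.09 (1.04 to 1.13), above that of Mueller glia, so this order also depended on the limit.

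Single genes showed the same order. Asns was at -0.15 in cones, -0.24 in bipolar cells, -0.55 in amacrine cells and -0.77 in Mueller glia, against 3.72 in rods. For Mef2c the rod ratio was lower than in each class, by -0.58 in amacrine cells to -1.33 in cones. The ribosomal genes were at 0.44 in Mueller glia and 0.44 in rods, a difference of -0.00 (-0.02 to 0.02), so they did not set rods apart from every class. Over all gated cells the ribosomal ratio of rods was 0.19. Adipor1 was lower in KO in all 5 classes, at -2.01 in rods, -1.56 in cones, -1.41 in bipolar cells, -1.46 in amacrine cells and -2.16 in Mueller glia. For Edn2 the intervals of the difference between rods and each class held 0, since the other classes had few UMIs.

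**Figure D5:**
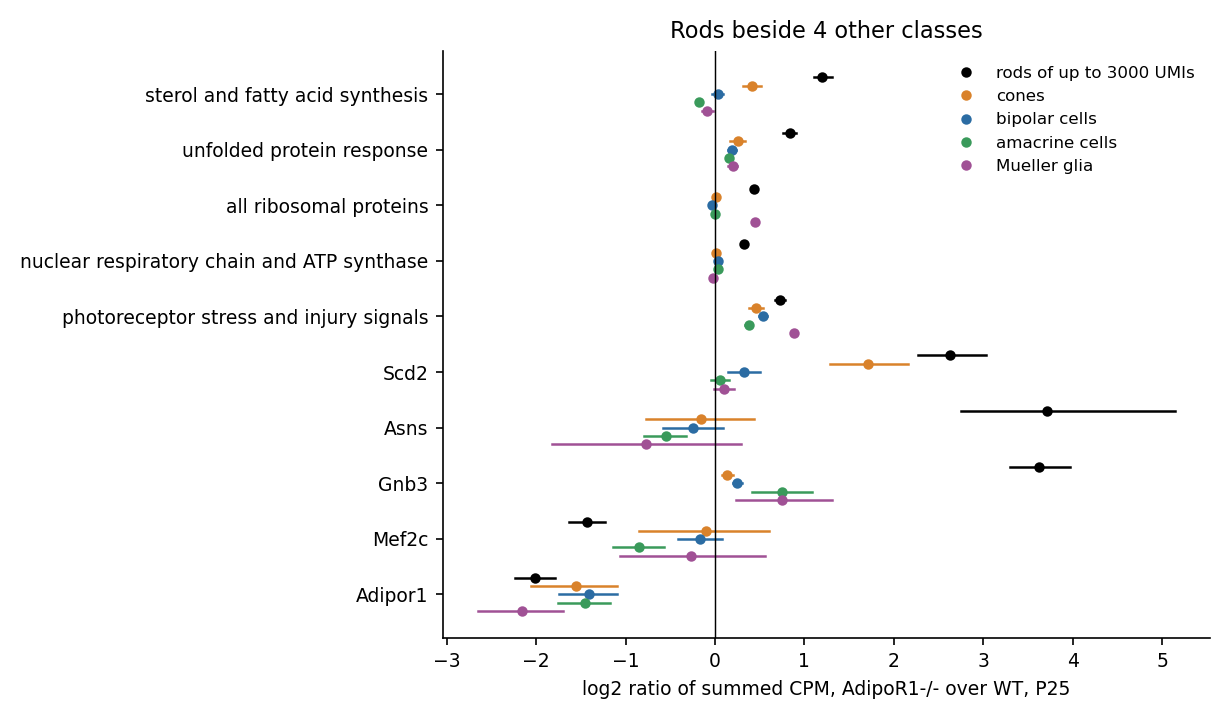
The x axis is the log2 ratio of KO to WT at P25 and the y axis lists gene groups, given as summed UMIs, and single genes. Points are rods of up to 3000 UMIs, cones, bipolar cells, amacrine cells and Mueller glia, with 95% counting intervals. Rods of up to 3000 UMIs stand apart for sterol and fatty acid synthesis (1.202), Asns (3.72) and Gnb3 (3.62), and share the ribosomal ratio of 0.44 with Mueller glia.

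The share of rods with RNA of a gene was read at equal depth, with each cell thinned to 1000 UMIs, which left 429 WT and 1271 KO rods of up to 3000 UMIs. Edn2 was detected in 0.233% of WT and 14.9% of KO rods (0.268% and 17.8% before thinning), and at the same depth in 0.394% of KO bipolar cells and 0.483% of KO amacrine cells. Cebpd was detected in 0.233% and 29.0% of rods (0.537% and 33.9%), Gnb3 in 7.46% and 60.8% (8.05% and 66.8%) and Scd2 in 6.53% and 28.9% (7.38% and 35.9%). For Adipor1 the shares were 35.9% in WT and 10.4% in KO (40.0% and 14.04%). At the same depth Cebpd was detected in 2.56% of KO bipolar cells and 1.69% of KO amacrine cells, below the KO rods, and in 47.2% of WT and 69.8% of KO Mueller glia, above them.

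The differences were also read within bins of depth. In the 4 bins of up to 3000 UMIs, the sterol and fatty acid ratio was 1.07 to 1.38, that of the unfolded protein response 0.66 to 1.12, that of Cebpd 4.46 to 6.01, that of Gnb3 3.30 to 3.98 and that of Adipor1 -2.26 to -1.82. The ribosomal ratio was 0.32 to 0.43 and the respiratory one 0.17 to 0.32. Between 3000 and 4000 UMIs, where phototransduction genes held a median of 7.23% of the UMIs of 28 WT cells and 6.91% of those of 53 KO cells, the sterol and ribosomal ratios were smaller. The sterol ratio was 0.34 (0.07 to 0.62), the ribosomal one 0.11, the respiratory one 0.17 and that of Hmgcs1 -0.45 (-1.66 to 0.83), while Mef2c was at -1.13. In gated cells over 4000 UMIs, the sterol ratio was -0.11, Mef2c was at 0.02 and phototransduction at 2.00.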

How the data were processed

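Single retinal cells of WT and AdipoR1-/- mice (10x Genomics v2, 1 library per genotype at P19, P25 and P30) and bulk retina at P30 (4 libraries per genotype) were used. The submitters' processing notes name Cell Ranger 2.1, Seurat 3.2.2, edgeR 3.20.9, HOMER and the build mm10. The aligner of the bulk reads is not stated in those sources. The authors deposited the single-cell matrix as natural log values scaled to 10000 per cell, normalised a second time, together with cell and gene names, which are of the unit other. The authors deposited bulk retina as raw counts per gene, with library totals of 22734843 to 35118164. The deposited bulk RPE counts were not used.

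UMI counts were recovered by undoing both steps, and 99.99998% of values came out whole within 0.01. Counts were summed over the rods of a library and divided by the library's sum (CPM, per 1000000 UMIs), and log2 ratios used a prior count of 0.5 and Clopper-Pearson 95% intervals, which cover counting error only. Genes needed 50 UMIs in both genotypes together, and a gene was counted as higher or lower from 1.5-fold. With 1 library per genotype there is no test at P25. No doublet caller was run, and the rule on cells bars those with 2 or more genes of other classes. Samples of a group are separate pools or mice as far as the labels say, so the p-values of bulk retina measure the spread between its libraries. The test over the ages has 1 library per genotype and age. It holds the P25 libraries, so for genes named by their P25 ratios it is not independent of the choice. Its p-values measure how far the KO to WT difference varied between the ages, with variances shared across genes. The P30 batch and the unlike sex at P25 are part of that variation. They do not measure the spread between mice or pools of 1 age.

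The 3 ages were tested together with limma-trend (3.58.1, log2 CPM with a prior count of 2, age in the model, at least 50 UMIs), and bulk retina with the quasi-likelihood test of edgeR (4.0.16, TMM, filterByExpr, adjusted p under 0.05 and 1.5-fold), in R 4.3.3. All p-values were adjusted by Benjamini-Hochberg over all genes tested. Python 3.11.15 with numpy 2.4.6, scipy 1.17.1, pandas 2.3.3 and matplotlib 3.10.9 did the rest. DESeq2 1.42.0 was an alternative. Each script was tested on simulated data. In bulk retina, deviations from the group means correlated at 0.157 to 0.218 between WT and KO libraries of the same replicate number (4 pairs). The labels give only these numbers, and other pairings were not compared, so a block of replicate numbers was fitted as an alternative. Bulk p-values are from the fit without the block unless stated.

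Named genes were the 10 highest and 10 lowest ratios among genes with at least 200 UMIs, the 4 members with the most UMIs and the 4 with the largest ratio at 100 UMIs or more in each list described, Adipor1, Adipor2, the ceramidases and the genes of the rule. Genes outside it (Atf6, Atp8a2, B2m, Bcl3, Chac1, Crx, Csf1r, Cx3cr1, Ddit3, Fads1, Gadd45b, Gfap, Gnat1, Hmgcs1, Il6st, Lif, Mt1, Osmr, P2ry12, Rdh12, Scd1, Serpina3n, Stat3 and Steap4) were named after their values were seen. The members and the gene lists were chosen with earlier results of these data known, and the limit of 3000 UMIs was set after the data were examined. Some genes that the naming rule picks are not reported here. Sequences are from RefSeq.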

Additional observations from a re-analysis of the deposited data

Results flagged for a closer look

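In bulk retina at P30, 68 groups of 4 libraries were read for 34 genes, and 7 had 1 library apart from the other 3 by Dixon's 95% limit. Chance flags about 1 in 20 groups. In KO, Scd2 was 693.9 CPM in the library apart against a median of 662.7 CPM of the group, Cnga1 405.0 against 528.0 CPM, Rp1 986.3 against 1271 CPM and Antxr2 94.9 against 75.02 CPM. In WT, Nrl was 2080 against 1973 CPM, H2-K1 25.0 against 18.2 CPM and H2-D1 51.3 against 35.7 CPM. The WT and KO libraries of Scd2, Antxr2 and H2-D1 do not overlap with these libraries included.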

How the results depend on the processing

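Of the genes at least 1.5-fold higher in P25 rods, 959 over all gated cells, the count became 408 at 200 UMIs per gene and 344 at 200 UMIs in rods of up to 3000 UMIs, where fewer genes were measured, and lay between 671 and 1300 otherwise. The 1408 lower became 2296 at 20 UMIs, 448 at 200 UMIs, 627 with none of the 10 genes of other classes, 842 without the deepest 5% of rods, 492 thinned to 1000 UMIs, 583 up to 3000 UMIs and 157 there at 200 UMIs. TMM gave 1189 higher and 1269 lower. Without the deep cells the amacrine marker median turned from -1.74 over 7 genes to 0.37 over the 2 that still had 50 UMIs, Slc6a9, a gene of the rule, at 0.24 and Tfap2b at 0.50. Gad1, also of the rule, and Slc32a1, both under 50 UMIs there, turned to 1.58 and 1.35. Cartpt turned to 1.17 there, 1.38 with no other-class gene and 0.86 without the deepest 5%.

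Over the 3 ages the 143 calls became 0 with no age in the model (358 at an unadjusted p under 0.05 by limma, against 170 called by edgeR with age), 62 without P19, 46 without P30 and 150 without P25. Up to 3000 UMIs they became 740, 885 by edgeR and 379 without P25. In bulk retina the 1946 calls became 5990 with no minimum fold and 2192 by library totals alone, which split 1802 to 390 against 1357 to 589. Leaving out 1 library gave 1823 to 2023 calls. With the replicate block, which takes libraries of the same number as pairs, 1979 genes passed. The block changed no call named in the report, though Hmgcs1, under 1.5-fold, went from an adjusted p of 0.0188 to 0.0538 in edgeR. With 1 library per genotype at P25, no alternative tests the spread between mice.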
